A study of Mus musculus with 6 samples.

Results

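The transcription factor genes of the dI1 interneurons were followed across the 6 arrays of the series: Atoh1, Barhl1, Barhl2, Lhx2, Lhx9 and Pou4f1. They were taken as the probe sets annotated to 1 of these symbols alone, and each of the 6 genes had 1 such probe set, out of 19920 genes with a complete probe set. The list was drawn up knowing that Barhl2 and Barhl1 were low on the labelled-knockout arrays. The genotype differences of its members are therefore a description, and no test of them is given.

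The tissue came from mouse embryos of embryonic day 11.5 and was the cervical part of the spinal cord, from which the dorsal spinal cord and floor plate had been removed. The labels put 3 arrays under the genotype Nkx2.9 knockout, called labelled-knockout arrays here, and 3 under wild type. Each group has an array A, an array B and an array C. The labels gave no treatment, strain, allele or sex, and did not say how many embryos made up an array. The p-values thus speak only to the spread among these arrays, whose small number limits precision. Each value is a log2 expression value centred on the middle of its own probe set, so that a value of 0 is the median of the 6 arrays. Differences between arrays can be read from such values, but the level of a gene and its signal over background cannot, and whether the defining markers of a tissue are present could not be checked.

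dI1 neurons arise from the most dorsal neural progenitors of the spinal cord, next to the roof plate. Those progenitors express Atoh1, a basic helix-loop-helix factor required for the dI1 fate, and their daughters switch on the LIM homeodomain factors Lhx2 and Lhx9, the BarH-type homeodomain factors Barhl1 and Barhl2, and the POU factor Pou4f1. The neurons migrate ventrally into the deep dorsal horn, some send commissural axons and others ipsilateral ones, and the lineage includes neurons that relay limb position to the cerebellum. Nkx2-9, the targeted gene, is a homeodomain factor of ventral progenitors, at the opposite end of the dorsal to ventral axis.

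Nkx2-9 itself and arrays that stood apart were examined first. Nkx2-9 was not lower on the labelled-knockout arrays: it averaged 0.10 ± 0.17 there and -0.08 ± 0.14 in wild-type arrays (SD, n = 3 each), and the position of its probes relative to the deleted part was not known. Xist, the X-inactivation RNA, stood at 4.56 and 4.91 on labelled-knockout arrays B and C, against -0.25 to 0.11 on the other 4. The Y-linked genes Eif2s3y, Kdm5d and Uty lay between -3.20 and -2.57 on B and C, and between -0.03 and 0.17 on the other 4. By these genes, labelled-knockout B and C read as female and the other 4 arrays as male. Sex was thus unbalanced between the labels, and its part in the member values was not tested. Labelled-knockout C also had the widest spread of values (SD 0.19 over its probe sets, against 0.10 to 0.14 on the others) and the highest medians of mesenchyme genes (0.54 over 12 genes) and of vessel genes (0.76 over 8 genes). Over the whole table of 28815 probe sets none passed an adjusted p under 0.05 in limma with Benjamini-Hochberg adjustment (0% called), and at unadjusted p under 0.05 there were 719 lower (2.5%) and 886 higher (3.07%) in the labelled-knockout arrays. Without labelled-knockout A, 5 probe sets passed; 4 of them were Xist and the Y-linked Kdm5d, Eif2s3y and Uty, and the fifth carried no single symbol.

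The promoters of both Barhl genes are shown because these genes gave the rule its direction and followed each other across the arrays. Each is the RefSeq window on GRCm38.p6 from 250 bases before to 50 after a transcript start, printed on the strand of the gene. That of Barhl2 is chr5:106458117-106458416 (minus strand) and the upstream one of Barhl1 is chr2:28916619-28916918 (minus strand). Capitals mark the E-box CANNTG, the kind of site that Atoh1 and other basic helix-loop-helix factors bind, and the homeodomain cores TAATTA and TAATTG, on either strand.
Barhl2: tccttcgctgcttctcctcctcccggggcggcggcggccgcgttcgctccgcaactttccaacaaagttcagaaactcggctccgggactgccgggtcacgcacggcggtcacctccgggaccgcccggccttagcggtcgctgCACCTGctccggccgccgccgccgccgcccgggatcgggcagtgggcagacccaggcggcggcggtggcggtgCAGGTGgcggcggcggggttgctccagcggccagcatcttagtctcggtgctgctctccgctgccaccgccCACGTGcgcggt
Barhl1: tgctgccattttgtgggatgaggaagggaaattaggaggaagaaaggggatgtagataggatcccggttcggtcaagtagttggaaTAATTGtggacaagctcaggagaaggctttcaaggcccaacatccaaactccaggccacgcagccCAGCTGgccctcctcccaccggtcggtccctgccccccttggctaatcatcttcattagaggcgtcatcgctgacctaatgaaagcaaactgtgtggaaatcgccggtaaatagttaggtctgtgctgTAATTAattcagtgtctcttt

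The Barhl2 window held 3 E-boxes and neither homeodomain core. The Barhl1 window held 1 E-box, which had the form CAGCTG, together with 1 TAATTA and 1 TAATTG. All 6 genes matched the promoter table, with 8 windows in all since Barhl1 and Lhx2 had 2 starts each there. The annotated genes of Barhl1 and Lhx9 reached further upstream than these windows, to chr2:28917984 and chr1:138848839. An E-box was in 6 of the 8 windows, against 72.3% of the 32851 windows of the same length. The form CAGCTG, which is one case of CANNTG, was in 3 of the 8 windows, against 16.3% of all windows. TAATTA was in 1 and TAATTG in 2 of the 8, against 5.29% and 8% of all. Those homeodomain matches were all in windows of Barhl1, and CAGCTG was in both Barhl1 windows and that of Pou4f1. The window counts thus lean on 1 gene. The matches are letters in a window and were not tested as sites.

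Atoh1, the factor that starts the lineage, did not separate the genotypes. Its value was 0.74, -0.04 and -0.04 on labelled-knockout arrays A, B and C, against -0.05, 0.23 and 0.04 on wild-type A, B and C. A single array, labelled-knockout A, stood above all others, and the remaining knockout values lay within the wild-type range. The means were 0.22 ± 0.45 in the labelled-knockout arrays and 0.07 ± 0.14 in wild-type arrays (SD, n = 3 each). The difference was 0.15 on the log2 scale (SE 0.22), smaller than the SD of the labelled-knockout arrays. Without labelled-knockout A it turned to -0.11. It was 0.28 without knockout B or knockout C, 0.23 with wild-type B left out and 0.08 with wild-type A left out.

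Barhl2 had the largest difference of the 6 genes. In mouse it is needed for ipsilateral and commissural dI1 neurons to become different, and it holds Lhx2 down in the ipsilateral ones. It stood at -0.21, -0.14 and -0.36 on labelled-knockout arrays A, B and C, against 0.32, 0.14 and 0.55 on wild-type A, B and C. Every labelled-knockout array lay below every wild-type array. It was the only one of the 6 genes with such a gap; over the table, 4.25% of 28791 complete probe sets had all labelled-knockout arrays below all wild-type arrays. The difference was -0.57 (SE 0.11), a signal 1.48-fold lower in the labelled-knockout arrays, from means of -0.23 ± 0.11 there and 0.34 ± 0.21 in wild-type arrays (SD, n = 3 each). Counted from the lowest difference, Barhl2 was number 52 of the 19920 genes. With single arrays left out the difference ran from -0.67 to -0.46. Its sign could not turn in this step, since the groups did not overlap. In such bulk tissue, fewer cells of a type and less RNA per cell cannot be told apart.

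Barhl1, the other BarH-type gene of the lineage, differed less and its groups touched. It stood at -0.12, 0.0016 and -0.27 on labelled-knockout arrays A, B and C, against 0.19, -0.0016 and 0.24 on wild-type A, B and C. Labelled-knockout B and wild-type B both lay at the median, while the other arrays of the 2 groups did not mix. The difference was -0.27 (SE 0.09, 1.21-fold lower), and its means were -0.13 ± 0.13 in the labelled-knockout arrays and 0.14 ± 0.13 in wild-type arrays (SD, n = 3 each). It ran from -0.34 to -0.20 with single arrays left out. Its sign could hardly turn in this step, since the groups crossed only at array B.

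The LIM homeodomain pair differed in opposite directions. In mouse, Lhx2 and Lhx9 act together to turn on the guidance receptor gene Robo3 in commissural dI1 neurons. Lhx9 stood at 0.04, -0.15 and -0.41 on labelled-knockout arrays A, B and C, against 0.07, -0.04 and 0.49 on wild-type A, B and C. Labelled-knockout A lay inside the wild-type range, so the groups overlapped. The difference was -0.35 (SE 0.17), between means of -0.18 ± 0.23 in the labelled-knockout arrays and 0.17 ± 0.28 in wild-type arrays (SD, n = 3 each). It was -0.19 without wild-type C and -0.23 without labelled-knockout C.

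Lhx2 stood at 0.02, -0.02 and 0.03 on labelled-knockout arrays A, B and C, against -0.17, -0.25 and 0.03 on wild-type A, B and C. The labelled-knockout arrays were nearly equal, and wild-type C lay just above them while the other wild-type arrays lay below. The difference was 0.14 (SE 0.08), between means of 0.01 ± 0.02 in the labelled-knockout arrays and -0.13 ± 0.15 in wild-type arrays (SD, n = 3 each). It was 0.08 with wild-type B left out and 0.22 with wild-type C left out. Barhl2 and Lhx2 thus differed in opposite directions between the labels, and the Lhx2 groups overlapped.

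Pou4f1, also known as Brn3a, marks dI1 neurons and other dorsal interneurons as well as sensory neurons of the dorsal root ganglion. It stood at -0.09, 0.16 and -0.57 on labelled-knockout arrays A, B and C, against 0.09, -0.17 and 0.11 on wild-type A, B and C. The labelled-knockout arrays included both the highest and the lowest value, so the wild-type arrays lay inside their range. The difference was -0.18 (SE 0.19), between means of -0.17 ± 0.37 in the labelled-knockout arrays and 0.01 ± 0.16 in wild-type arrays (SD, n = 3 each). Without labelled-knockout C it turned to 0.02, and without knockout B it was -0.34.

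**Figure D1:**
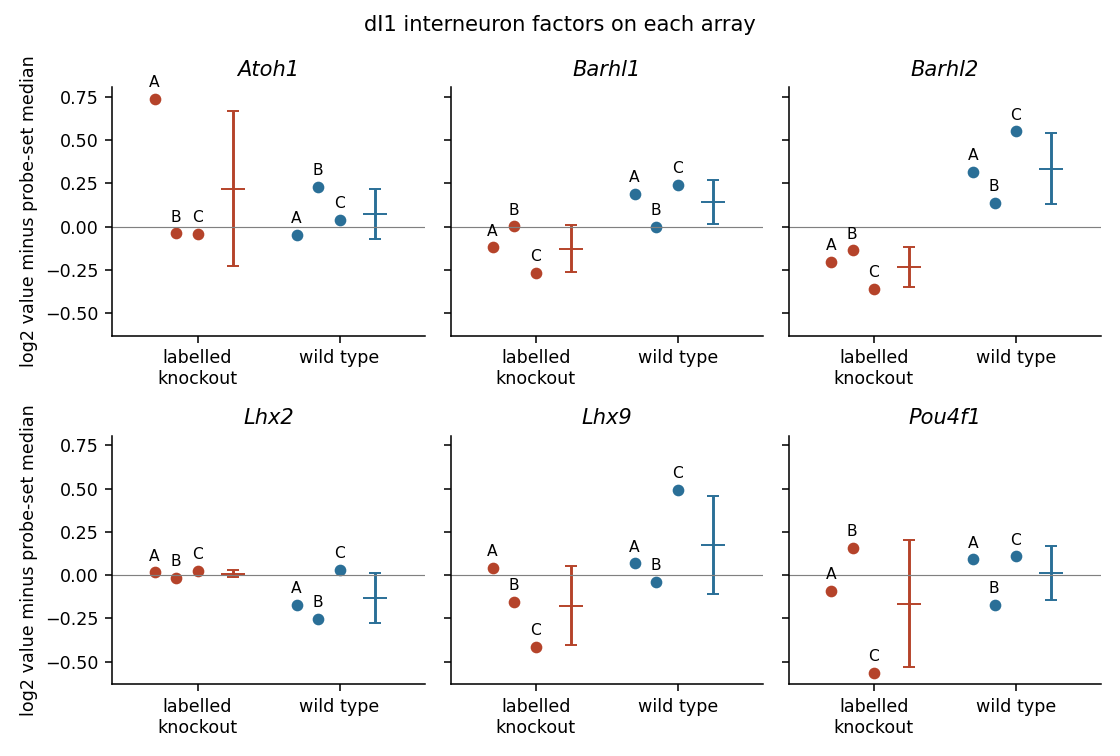
Value of each dI1 gene on every array, as log2 with the median of the probe set subtracted, with the 3 labelled-knockout arrays left of the 3 wild-type arrays and letters naming the arrays. Bars give the mean and SD of each group; only Barhl2 has all labelled-knockout arrays (-0.36 to -0.14) below all wild-type arrays (0.14 to 0.55).

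Across the 6 genes, 4 were lower and 2 higher in the labelled-knockout arrays, with a median difference of -0.22, against 8950 of 19920 genes lower (44.9%) and a median of 0.01 over all of them. Since the list was chosen on this contrast, nothing is read from that count. The members varied more between arrays of 1 genotype than most of the table. The residual SD was 0.33 for Atoh1, 0.28 for Pou4f1, 0.26 for Lhx9, 0.17 for Barhl2, 0.13 for Barhl1 and 0.10 for Lhx2, where the median over all probe sets was 0.08.

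**Figure D2:**
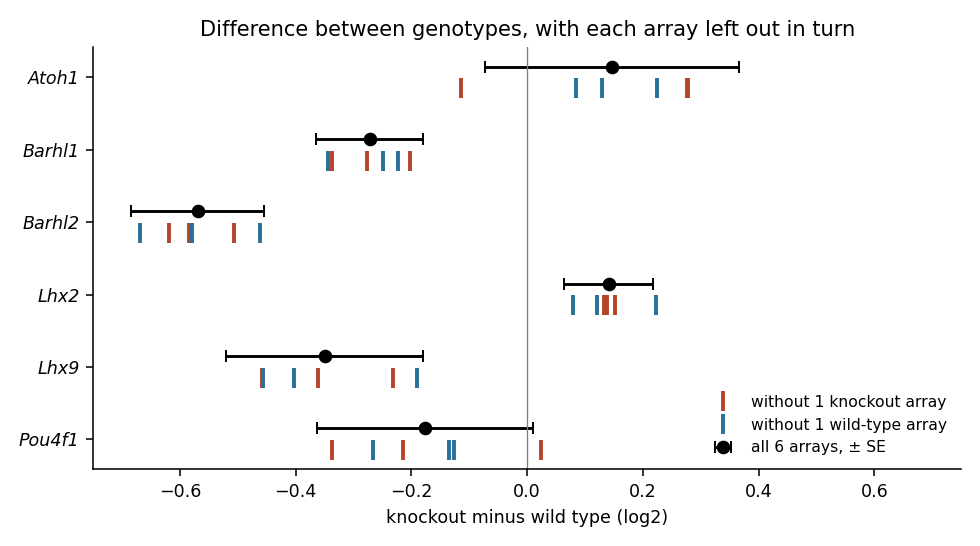
Knockout minus wild type for each dI1 gene on the log2 scale, with all 6 arrays (black point, bar for the SE) and with each array left out in turn (red, without 1 labelled-knockout array; blue, without 1 wild-type array). Barhl2, Barhl1 and Lhx9 stay below 0 and Lhx2 above it with any 1 array left out, while Atoh1 turns to -0.11 and Pou4f1 to 0.02. For Barhl2 this is fixed beforehand, since its groups do not overlap, and for Barhl1 nearly so, since its groups cross only at array B.

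How the members followed each other within a genotype does not use the contrast that chose them. For this, each array was taken as its deviation from the mean of its own group, and likeness was measured as the root mean square difference of these deviations over the 6 arrays, which is small when 2 genes deviate together and also when neither varies much. The closest of the 15 pairs was Barhl1 with Barhl2, at 0.06. Both genes were highest in B and lowest in C among the labelled-knockout arrays, and highest in C and lowest in B among the wild type. Of 17038 genes compared, 47 (0.276%) were nearer to Barhl2 than Barhl1 was, and 210 (1.23%) were nearer to Barhl1 than Barhl2 was.

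Lhx9 shared part of that order. It deviated to the same side as Barhl2 on 6 of 6 arrays, at a distance of 0.11. Of the genes compared, 48 (0.282%) were nearer to Lhx9 than Barhl2 was, and 1482 (8.70%) were nearer to Barhl2 than Lhx9 was. Pou4f1 deviated to the same side as Barhl1 on 6 of 6 arrays, at 0.14. Here 184 genes (1.08%) were nearer to Pou4f1 than Barhl1 was, but 9481 (55.6%) were nearer to Barhl1 than Pou4f1 was. Lhx2, which hardly varied among the labelled-knockout arrays, was 0.09 from Barhl2. With Barhl2 as the starting point 341 genes (2.0%) were nearer than Lhx2, and with Lhx2 as the starting point 3960 (23.2%) were nearer than Barhl2. For these 3 pairs, how close the genes ranked depended on which of them was the starting point. All 5 pairs with Atoh1 were farther apart (0.27 to 0.35) than the other 10 pairs (0.06 to 0.23), with 12096 genes (71.0%) nearer to Atoh1 than Barhl2 was and 16643 (97.7%) nearer to Barhl2 than Atoh1 was. Atoh1 had the largest residual SD of the 6 genes (0.33) and stood at 0.74 on labelled-knockout A. The measure is not scaled for spread, so a widely varying gene lies far from genes that vary little. These distances rest on 6 arrays, and genes that share an array share its tissue and its amplification.

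When the genotype difference is kept in, the genes with the pattern most like that of Barhl2 over the 6 arrays were Tmem267, a transmembrane protein gene, at a root mean square difference of 0.12, and S100a8, which encodes a calcium-binding protein of myeloid cells, at 0.16. Lhx9 and Barhl1 came next among 17038 genes, at 0.16 and 0.17, and Ptn, the gene of the growth factor pleiotrophin, followed at 0.17. The 5 genes nearest to Barhl1 were Fzd10, a Frizzled receptor for Wnt ligands, at 0.04, Fign, the gene of the microtubule-severing protein fidgetin, at 0.05, and Tcte2, Plce1 (phospholipase C epsilon) and the POU factor gene Pou6f1, each at 0.06. In both sets labelled-knockout C was at or near the bottom and wild-type C at the top. The genes were picked for this likeness, which is a description.

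**Figure D3:**
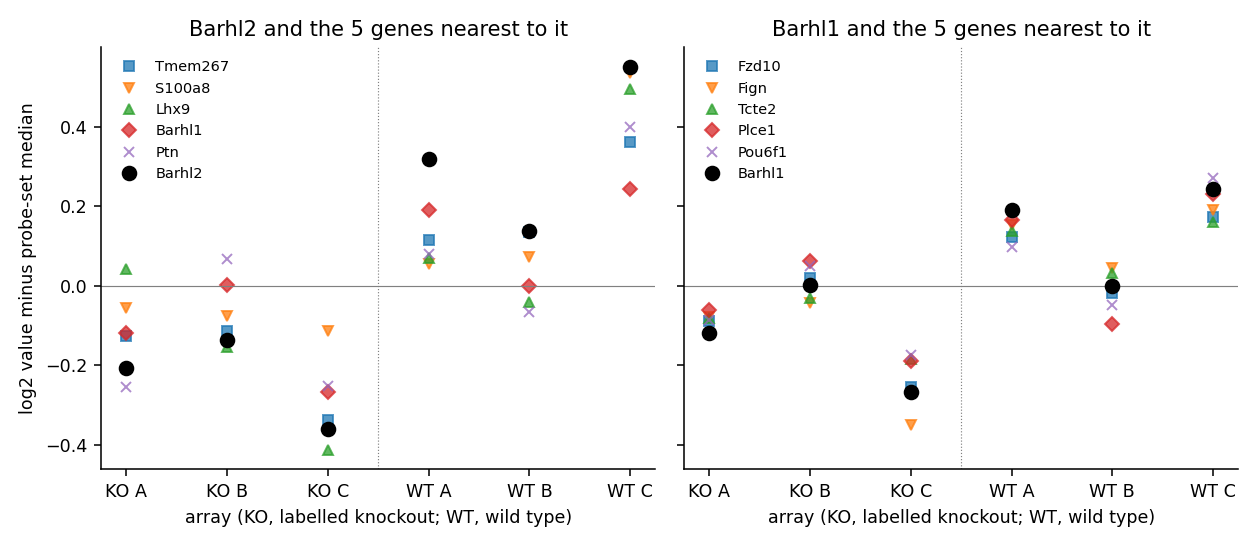
Barhl2 (left) and Barhl1 (right), each with the 5 genes whose 6 array values are nearest to it, as log2 values with the median of the probe set subtracted; labelled-knockout arrays (KO) stand left of wild-type arrays (WT). Lhx9 and Barhl1 are among the 5 nearest to Barhl2, and wild-type C is the highest array for every gene shown.

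Genes that act in the axons of dI1 and other commissural neurons were compared as a list. All 14 were measured, of which 10 were lower and 4 higher in the labelled-knockout arrays, with a median difference of -0.12, against 44.9% of all genes lower. None passed an adjusted p under 0.05 in limma, and at unadjusted p under 0.05 there was 1 lower, Robo2, and 0 higher. Robo2, a Slit receptor, was at -0.72 (SE 0.28), the adhesion molecule gene Nrcam at -0.35 (SE 0.15), and Cntn2, the gene of the early commissural axon protein TAG-1, at 0.26 (SE 0.13). Robo3, named for its link to Lhx2 and Lhx9 after its value was seen, was at 0.10 (SE 0.14). Labelled-knockout C was the lowest array in 7 of the 14 genes, and the list median was -0.04 without it, -0.06 with wild-type B left out and -0.08 with wild-type A left out.

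Paralogs of the members were compared as a list as well. Of 11 measured, 7 were lower and 4 higher, with a median of -0.04, and none passed an adjusted p under 0.05 in limma (0 in each direction at unadjusted p under 0.05). The median was -0.01 without wild-type C and -0.06 without labelled-knockout B. The LIM homeodomain genes Lhx5 and Lhx1, which mark several other interneuron classes, were at -0.24 (SE 0.12) and -0.23 (SE 0.15), and Atoh8 was at -0.14 (SE 0.06). Lhx1 stood at -0.54 on labelled-knockout C and between -0.02 and 0.07 on the other 5 arrays.

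The dissection left out the dorsal cord, where dI1 neurons are born, so genes of the dorsal cord were set beside the members. Because the values are centred, lists are given by their median per array, not by a summed level. The 8 measured roof plate genes had medians of -0.04, -0.01 and 0.02 on labelled-knockout arrays A, B and C, and of -0.02, -0.0036 and 0.03 on wild-type A, B and C, with 4 lower and 4 higher. The largest differences were 0.16 (SE 0.20) for Bmp4, -0.16 (SE 0.28) for Msx2 and -0.14 (SE 0.12) for Bmp7. Single genes moved more than the list median: Msx2 ran from -0.55 on wild-type B to 0.50 on wild-type C. Bmp4 stood at 0.63 on labelled-knockout C. Others, such as Gdf7 and Wnt3a, hardly varied (residual SD 0.04 and 0.05). The even median therefore does not speak to the amount of roof plate tissue on each array. The roof plate gene Lmx1a was not analysed here.

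The 12 measured dorsal progenitor genes had medians of 0.02, 0.01 and -0.13 on labelled-knockout arrays A, B and C, and of 0.01, -0.13 and 0.02 on wild-type A, B and C. Thus 1 array of each genotype was low. The median difference was 0.01, with 6 lower and 6 higher, and it changed sign with single arrays left out (-0.10 to 0.05). Olig3, a factor of the progenitors of dI1 to dI3, was at -0.03, -0.02 and -0.59 on labelled-knockout arrays A, B and C, and at 0.12, 0.48 and 0.02 on wild-type A, B and C, a difference of -0.42 (SE 0.19) with no overlap between the groups, as in 4.25% of the complete probe sets. Ptf1a, a factor of dI4 progenitors, was at -0.51 (SE 0.28) and the dorsal homeobox gene Msx3 at -0.33 (SE 0.59), with overlapping groups in both. None of the roof plate or dorsal progenitor genes passed an adjusted p under 0.05 in limma, and at unadjusted p under 0.05 there were 0 lower and 1 higher in both lists together, Neurog1 (0.16, SE 0.06), a proneural factor of dI2 progenitors.

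Single dorsal genes varied widely between arrays. Msx3 stood at 0.12, 0.04 and -1.61 on labelled-knockout arrays A, B and C, and at -0.04, -1.06 and 0.63 on wild-type A, B and C. Pax3, a dorsal progenitor factor named after its values were seen, stood at 0.07, 0.04 and -0.82 on labelled-knockout arrays A, B and C, and at -0.04, -0.94 and 0.32 on wild-type A, B and C. Tfap2b, a factor of neural crest and dorsal neurons, had the same outline: 0.23, 0.16 and -1.88 on labelled-knockout arrays A, B and C, and -0.16, -0.51 and 0.60 on wild-type A, B and C. Labelled-knockout C and wild-type B were low in all 3 genes and wild-type C was high.

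Within each genotype the Barhl genes shared the extremes of Msx3, Pax3 and Tfap2b, though not the order of labelled-knockout A and B. Barhl2 was lowest in C among the labelled-knockout arrays, lowest in B and highest in C among the wild type. Other dorsal progenitor genes went the other way: Zic1 and Zic2 stood at 0.83 and 0.87 on labelled-knockout C. Of the 12 genes of that list, labelled-knockout C was the lowest array in 4 and the highest in 4. Wild-type B was the lowest array in 5. Between the genotypes Olig3, Ptf1a and Msx3 were lower in the labelled-knockout arrays, as Barhl2 was, and Pax3 differed by -0.02. Over the whole dorsal progenitor list 6 genes were lower and 6 higher. Pax3 and Msx3 were each low on 1 array of each genotype. Barhl2 stood at -0.21 and -0.14 on labelled-knockout arrays A and B, where Pax3 and Msx3 lay between 0.04 and 0.12, and at 0.14 on wild-type B, where Pax3 was at -0.94 and Msx3 at -1.06. With both labelled-knockout C and wild-type B left out, an alternative chosen after seeing the data, Barhl2 differed by -0.61 (-0.57 with all arrays), Lhx9 by -0.34 and Barhl1 by -0.27. Atoh1 differed by 0.36, Lhx2 by 0.07 and Pou4f1 by -0.07, against 0.15, 0.14 and -0.18 with all arrays. The list median was then -0.0009 for commissural axon genes and -0.05 for neuron genes (-0.12 and -0.15 with all arrays). For cell cycle genes it was 0.06 and for posterior Hox genes -0.23 (0.31 and -0.30 with all arrays). With the median of the dorsal progenitor list subtracted on each array, the Barhl2 difference was -0.57. Barhl2 stood at -0.22, -0.15 and -0.23 on labelled-knockout arrays A, B and C, against 0.30, 0.26 and 0.53 on wild-type A, B and C. This step could hardly change the difference, since that median was -0.13 on both labelled-knockout C and wild-type B. On the other arrays it was 0.01 to 0.02. The list median moved far less than Pax3 and Msx3, so the step does not remove their swings. The labels gave the position of the dorsal cut for none of the arrays, and its part in the member values was not tested.

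Genes of other dorsal interneurons and of sensory neurons followed. Of the 10 measured dI2 to dI6 interneuron genes, 9 were lower and 1 higher, with a median of -0.04, and labelled-knockout C was the lowest array in 8 of them. Without that array the median was -0.02, and without knockout B it was -0.12. Pax2, of inhibitory interneurons, was at -0.33 (SE 0.15), and Lhx5 and Lhx1 are given above. The 12 measured dorsal root ganglion genes, set beside Pou4f1, had 6 lower and 6 higher and a median of 0.01 (0.07 without labelled-knockout C and -0.01 without knockout A), with the intermediate filament gene Prph at -0.40 (SE 0.18), the neurotrophin receptor gene Ntrk2 at -0.37 (SE 0.23) and Sncg at -0.22 (SE 0.15). Of these 2 lists no gene passed an adjusted p under 0.05 in limma, and at unadjusted p under 0.05 there were 0 lower and 1 higher, Runx3 (0.18, SE 0.07), a factor of proprioceptive sensory neurons.

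Neuronal, proliferation and positional genes were set beside the members as well. The 16 differentiated neuron genes had medians of -0.04, 0.01 and -0.25 on labelled-knockout arrays A, B and C, and of 0.02, 0.14 and -0.01 on wild-type A, B and C, with 15 lower and 1 higher. Slc17a6, the vesicular glutamate transporter gene used by dI1 neurons among others, was at -0.66 (SE 0.35) and stood at -1.43 on labelled-knockout C. The 17 measured cell cycle genes all had a higher mean in the labelled-knockout arrays, and their median difference was 0.31, or 0.13 with wild-type B left out. Their medians were 0.18, -0.10 and 0.23 on labelled-knockout arrays A, B and C, and -0.07, -0.55 and 0.04 on wild-type A, B and C. Wild-type B was the lowest array in all 17 genes, and the groups overlapped in each of them. Posterior Hox genes, which mark levels further towards the tail, had a median difference of -0.30 (14 of 17 lower), and -0.16 without labelled-knockout A. Hoxc8 was at -1.53 (SE 0.92), Hoxc6 at -1.29 (SE 0.27) and Hoxd8 at -1.19 (SE 0.29). Hoxc8 stood at 3.56 on wild-type B and between -0.47 and 0.27 on every other array. Wild-type B was the highest array in 11 of the 17 posterior Hox genes, and their median difference was -0.27 without it. No gene of the 3 lists passed an adjusted p under 0.05 in limma. At unadjusted p under 0.05, 2 neuron genes were lower, the synaptotagmin gene Syt1 (-0.44) and the RNA-binding protein gene Elavl3 (-0.13). So were 7 of the 17 posterior Hox genes, against 2.5% of all probe sets lower, and no cell cycle gene passed. All labelled-knockout arrays lay below all wild-type arrays in 7 of the 17 posterior Hox genes and 3 of the 16 neuron genes, against 4.25% of complete probe sets.

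The members were then read relative to these lists on each array. With the median of the neuron list subtracted, Barhl2 stood at -0.17, -0.14 and -0.11 on labelled-knockout arrays A, B and C, against 0.29, -0.01 and 0.56 on wild-type A, B and C. The groups still did not overlap and the difference was -0.42. For Barhl1 the same step gave a difference of -0.12 with overlapping groups, for Lhx9 -0.20, for Pou4f1 -0.03, and for both Atoh1 and Lhx2 0.29. With the median of the posterior Hox list subtracted, the Barhl2 groups overlapped, at 0.11, -0.09 and -0.26 on labelled-knockout arrays A, B and C and 0.27, -0.12 and 0.45 on wild-type A, B and C, and the difference was -0.28. Barhl1 then differed by 0.02, Lhx9 by -0.06 and Pou4f1 by 0.11, so the sign of Barhl1 and Pou4f1 turned. Atoh1 and Lhx2 each differed by 0.43 relative to that list, with no overlap between the groups. With the median of the cell cycle list subtracted, Barhl2 differed by -0.87, Lhx9 by -0.65, Barhl1 by -0.57 and Pou4f1 by -0.47, and Atoh1 and Lhx2 turned sign, to -0.15 and -0.16. The part of neuron number, of dividing cells, of the level along the cord or of tissue carried along on labelled-knockout C in the member values was not tested.

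**Figure D4:**
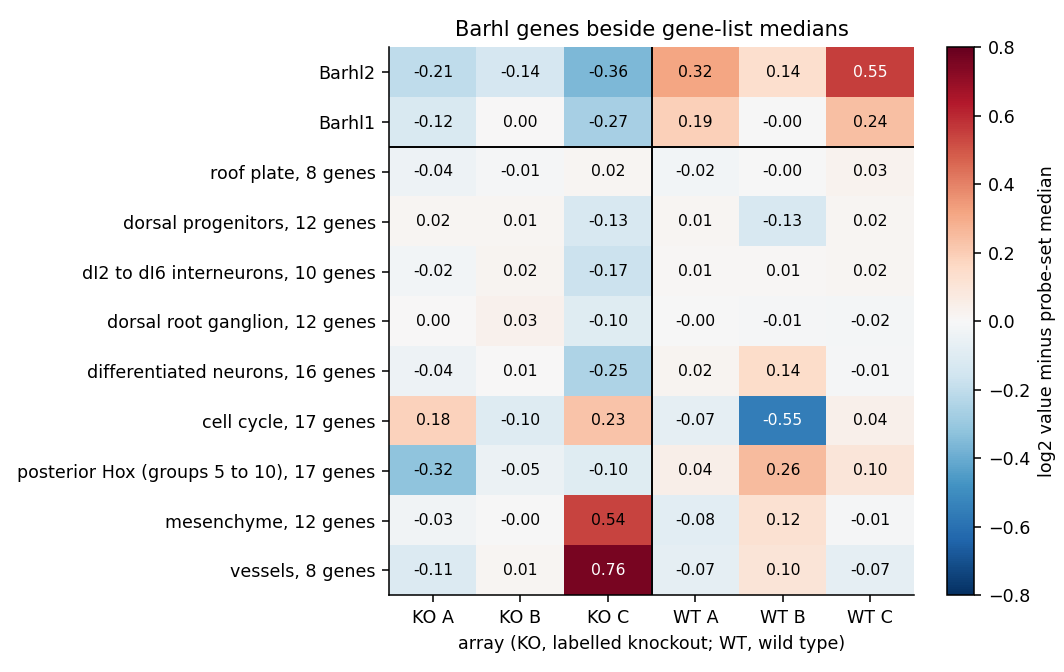
Barhl2 and Barhl1 (top rows) beside the medians of marker lists on each array, as log2 values with the median of the probe set subtracted; colour and printed number give the same value, and labelled-knockout arrays (KO) stand left of wild-type arrays (WT). The roof plate list median stays between -0.04 and 0.03 on all arrays, though its gene Msx2 runs from -0.55 to 0.50. The dorsal progenitor list is low on 1 array of each genotype, and mesenchyme and vessel genes are highest on labelled-knockout C.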

How the data were processed

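Per the labels' protocols, whole-transcriptome amplification of the RNA was followed by biotin labelling. The authors deposited log2 values from RMA, per the submitters' processing notes. The version of RMA, the annotation's build and the log base are not given in the sources used here, and base 2 was taken. In the deposited table all 28791 complete probe sets had a median within 1e-06 of 0 over the 6 arrays, and 24 more had no value in wild-type C. No pair of arrays held identical values.

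Symbols came from the platform annotation: 21780 probe sets had 1 symbol, 1605 several and 5430 none. For each gene the complete probe set with the most accessions was used. Groups were taken from the genotype in the labels and fitted with limma 3.58.1 in R 4.3.3, with Benjamini-Hochberg adjustment over all 28815 probe sets. Standard errors (SE) come from limma's moderated variances. The fit was tested on simulated data. Letters were checked as pairs by the correlation of deviations from group means, which was 0.17 for A, 0.22 for B and 0.02 for C. Between arrays of unlike letters it was -0.19 to 0.04. Matched A and B arrays were thus more alike than unmatched ones, and matched C arrays were not. The main fit did not treat letters as pairs, and a fit with the letter as a block is given below.

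The named genes were the members, the 5 genes nearest to each Barhl gene (predicted genes, smell receptors and small RNAs left out), and per list up to 3 genes with the largest difference. The members and lists were chosen with earlier results of these data known. Of the 17 lists, those of ventral interneurons, motor neurons, neural crest, anterior Hox genes, erythroid cells and sex had median differences of -0.0012, -0.0031, 0.02, 0.04, 0.30 and -1.97. The sex list holds Xist as well as Y-linked genes, which differed in opposite directions. A planned filter on dim probe sets was left out because centred values hold no level. Figures used matplotlib 3.10.9 (Python 3.11.15).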

Additional observations from a re-analysis of the deposited data

How the results depend on the processing

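The differences of Barhl2, Barhl1, Lhx9 and Lhx2 kept their direction under every alternative run: array weights, quantile normalization, arrays centred on their medians, a term for high Xist, averaging a gene's probe sets, and leaving out arrays. With single arrays left out they ran from -0.67 to -0.46 for Barhl2, -0.34 to -0.20 for Barhl1, -0.46 to -0.19 for Lhx9 and 0.08 to 0.22 for Lhx2. For Barhl2 the direction was fixed beforehand when arrays were left out, since its groups did not overlap. For Barhl1 it could hardly turn, since its groups crossed only at array B. Averaging probe sets could not move a member, since each member had a single probe set. Centring the arrays shifted the differences of all genes alike. Atoh1 ran from -0.11 to 0.28 and Pou4f1 from -0.34 to 0.023, turning sign without labelled-knockout A and without labelled-knockout C. With the Xist term, which reads the difference from labelled-knockout A against the wild type, Atoh1 was at 0.67, Lhx9 at -0.13, Pou4f1 at -0.10, Barhl2 at -0.54 and Barhl1 at -0.26. The number of probe sets past the adjusted threshold was 0 to 5 with single arrays left out and 0 under the other alternatives. At unadjusted p under 0.05 it was 1494 lower and 1377 higher without labelled-knockout B, 420 and 557 without wild-type B, and 428 and 510 with knockout C and wild-type B both left out. With the letter as a replicate block 0 probe sets passed the adjusted threshold and 1253 lower and 1299 higher passed the unadjusted one, while the members' differences were the same as without it; the letters were not shown to pair the samples. The median of all probe sets moved by less than 0.1 under every setting. Precision is limited by 3 arrays per group, and signal over background could not be seen in centred values.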

Other observations

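Values of lists not described above also separated single arrays. Erythroid genes had medians of 0.12, -0.05 and 0.08 on labelled-knockout arrays A, B and C, and of -0.45, -0.57 and 0.18 on wild-type A, B and C, with all 6 measured genes higher in the labelled-knockout arrays and none past an adjusted p of 0.05 in limma (0 at unadjusted p under 0.05). Their median difference of 0.30 turned on single arrays: it was 0.03 with wild-type B left out, 0.14 with wild-type A, 0.16 with labelled-knockout A and 0.60 with wild-type C left out. Wild-type C was the highest array in 5 of these 6 genes, as it was in 4 of the 6 dI1 genes, against 14.8% of all genes. Labelled-knockout C was the lowest in 4 of the 6 dI1 genes and in 14 of the 16 neuron genes, against 19.6% of all genes; the dI1 counts follow in part from how the genes were chosen.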
